A study of Mus musculus with 19 samples.

Results

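Long intergenic noncoding RNAs are transcripts made from DNA between protein-coding genes. Many are capped, spliced and polyadenylated like messenger RNA, and as a class they are known for lower levels and more restricted expression than messenger RNA. Some act in the nucleus on chromatin or as a scaffold for nuclear bodies, some host small nucleolar RNAs in their introns, and for many no function is known. The arrays used here carry probes against such transcripts that are named only by a genomic interval and a strand, with no gene symbol. Of 55681 probes on the array, 15604 (28.02%) bear such a name. They were chosen by that name alone, on the 19 autosomes, and not by any measured value. They fall on 4429 strand-specific features of 35014 features in all, from 3387 intervals, 1042 of which are probed on both strands (2231 features on the forward strand and 2198 on the reverse strand). The sources used here do not state how the intervals were drawn.

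The RNA came from CD4 T cells taken from lymph nodes and spleen. The mice were adult C57Bl/6 females. Every group, negative cells included, carried the same transgenic genotype, Tg IL-2-GFP x FOXP3mRFP, in which GFP reports IL-2, a growth factor for T cells, and RFP reports Foxp3, the lineage factor of regulatory T cells. The groups were GFP-RFP- (5 arrays), GFP+RFP- (5), GFP-RFP+ (5) and GFP+RFP+ (4), each labelled by the reporters alone, with no treatment or time given. A label for cell type calls all 4 groups conventional, while the subtype of the RFP+ groups reads regulatory. The design sets regulatory against conventional cells, with and without IL-2 production. Sample titles carry the letter M and a replicate number, and the same numbers recur across the groups. Nothing in the labels says that replicates came from separate mice, so p-values measure only the spread between these samples.

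Each interval feature had 1 to 10 probes, with a median of 3, and every probe is 60 bases long. Intervals ran from 62 to 7128487 bases with a median of 7451, so that 937 were under 1000 bases and 127 over 100000. All 15486 interval probes with coordinates in the files lay inside their own interval and on its named strand (genome build mm9), and 118 had no coordinates. Chromosome 1 held the most intervals (269) and chromosome 19 the fewest (75). A probe was counted as detected where the scanning software marked its spot as well above background. A probe's level is given as log2 of its processed signal after subtracting the array's 75th percentile, taken over the 6612 probes detected on all arrays. A level also depends on how well the probe binds, so an order of probes or intervals by mean signal serves to choose what is described and does not rank amounts of RNA.

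The sequences that the results turn on are shown here. The first set gives pairs of probes against the forward and the reverse strand of the same interval. Capitals mark the bases of each probe that are complementary to its partner. In the chr15 pair both probes were detected on 19 arrays and both features passed the test between groups. In the chr16 pair, near Bcl6, the forward probe was detected on 19 arrays and the reverse probe on 2. In the chr4 pair the reverse probe was detected on 19 arrays and the forward probe on 0.
chr15:10367861-10367920, reverse strand: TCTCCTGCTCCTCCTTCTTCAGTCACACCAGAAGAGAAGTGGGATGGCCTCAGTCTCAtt
chr15:10367863-10367922, forward strand: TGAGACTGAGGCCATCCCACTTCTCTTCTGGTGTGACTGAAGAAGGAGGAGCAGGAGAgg
chr16:23995151-23995210, reverse strand: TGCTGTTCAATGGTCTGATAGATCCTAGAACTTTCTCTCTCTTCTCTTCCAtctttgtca
chr16:23995160-23995219, forward strand: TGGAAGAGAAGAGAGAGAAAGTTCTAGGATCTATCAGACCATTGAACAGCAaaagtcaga
chr4:11111725-11111784, reverse strand: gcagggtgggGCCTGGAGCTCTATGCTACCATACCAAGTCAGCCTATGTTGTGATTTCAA
chr4:11111715-11111774, forward strand: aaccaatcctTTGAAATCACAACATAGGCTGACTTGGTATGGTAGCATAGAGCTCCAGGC

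The next set shows interval probes that hold the letters of a protein-coding gene lying elsewhere in the genome, because several of the results below rest on such probes. Capitals mark the bases shared with that gene's own probe on the array, read as the reverse complement. The last probe set shows the probe used for the interval over Tug1, which has no capitals, and 2 probes with simple sequence, a run of G and a repeat of TG, both in capitals.
Interval chr4:13369325-13456750, forward, shared with Rpl26 over 32 bases: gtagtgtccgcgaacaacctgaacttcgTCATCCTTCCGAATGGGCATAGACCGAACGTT
Interval chr4:73870498-73881323, reverse, shared with Zfp384 over 60 bases: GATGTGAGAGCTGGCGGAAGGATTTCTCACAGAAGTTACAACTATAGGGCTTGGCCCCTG
Interval chr11:3539787-3548811, reverse, over Tug1: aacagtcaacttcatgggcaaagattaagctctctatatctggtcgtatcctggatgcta
Interval chr12:25852471-25852681, forward, near Id2: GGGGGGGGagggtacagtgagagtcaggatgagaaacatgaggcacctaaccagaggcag
Interval chr6:92040526-92041319, forward, near Fgd5: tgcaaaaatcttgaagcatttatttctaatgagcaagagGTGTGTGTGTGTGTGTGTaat

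Interval probes were detected less often than probes of protein-coding genes on most arrays. The share detected was 31.3% ± 5.25 (SD, n = 19 arrays) for interval probes and 36.5% ± 7.99 for the 26181 probes of 19703 protein-coding genes, a mean difference of -5.23 ± 4.36 percentage points. The interval share was the lower one on 17 of 19 arrays (exact two-sided sign-flip permutation test, p = 5.34e-05, the same after Benjamini-Hochberg adjustment over 2 tests). The exceptions were GFP-RFP+ 2, with 32% against 29.6%, and GFP+RFP+ 4, with 37.4% against 37.3%. The difference was -6.26 on the 8 arrays of slide 1, -3.62 on the 6 arrays of slide 2 and -5.51 on the 5 arrays of slide 3. Under the software's weaker flag (signal positive and significant) the difference was -0.813, with the interval share lower on 11 of 19 arrays. Probes of RefSeq noncoding genes, 1144 in number, were detected at 27.9% ± 4.51.

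Interval probes have a higher GC content than coding probes, with medians of 45% and 41.7%. When the coding share was computed at the GC content of the interval probes, it was 39.2% ± 7.94. The difference then was -7.89 ± 4.21 percentage points, with the interval share lower on 19 of 19 arrays (exact sign-flip permutation test, p = 3.81e-06, the smallest this test can give, 7.62e-06 adjusted). Detected interval probes were also dimmer as a class. Their median processed signal, in scanner units, was 42.8 to 245 over the arrays (median array 105), against 60 to 1340 (median array 455) for detected coding probes, and it was the lower median on 19 of 19 arrays. Interval probes gave 7.05% to 10.6% of the summed signal of all detected probes.

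**Figure D1:**
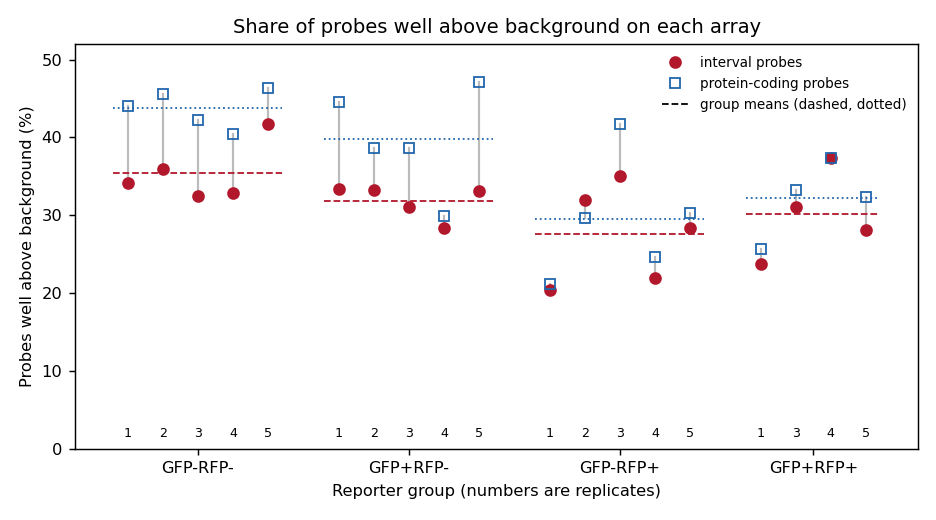
Percent of probes well above background on each of the 19 arrays, in 4 reporter groups, for interval probes (filled circles) and protein-coding probes (open squares), with grey lines joining both values of an array and dashed or dotted lines at the group means. Interval probes lie below coding probes on 17 arrays, with mean gaps of -8.29 and -7.97 percentage points in the RFP- groups and -1.95 and -2.08 in the RFP+ groups, a difference that did not pass after adjustment.

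Across the groups, the interval share was 35.5% ± 3.77 (SD) for the 5 GFP-RFP- arrays and 31.8% ± 2.17 for the 5 GFP+RFP- arrays. It was 27.5% ± 6.29 for the 5 GFP-RFP+ arrays and 30.1% ± 5.7 for the 4 GFP+RFP+ arrays. GFP-RFP- arrays held 34.1%, 36%, 32.5%, 32.9% and 41.7%, and GFP-RFP+ arrays 20.4%, 32%, 35%, 22% and 28.3%, so that the groups overlapped. The difference of -7.92 percentage points had p = 0.0476 by an exact permutation test and 0.152 after adjustment over 16 such tests. Without the 3 arrays on which under 30% of all probes were detected (GFP-RFP+ 1 and 4, GFP+RFP+ 1), it was -3.69 with p = 0.25 (exact permutation, 3 against 5 arrays). The coding share differed between the same groups by -14.3 points, and the gap between interval and coding share was -8.29 ± 2.21 in GFP-RFP- and -1.95 ± 3.27 in GFP-RFP+ (exact permutation p = 0.0159, adjusted 0.0635).

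The share of detected signal that came from interval probes separated the RFP groups without overlap. It was 9.4% to 10.6% on GFP-RFP- arrays and 7.15% to 8.72% on GFP-RFP+ arrays, with means of 9.99% and 7.98%. It was 8.75% to 10% on GFP+RFP- arrays and 7.05% to 7.91% on GFP+RFP+ arrays, with means of 9.39% and 7.66%. Each comparison had p = 0.00794, the smallest an exact permutation test of this size can give, and 0.0635 adjusted over the 16 tests, so neither passed. None of the 16 tests did. The median signal of detected coding probes moved with the same groups (920 ± 346 in GFP-RFP-, 240 ± 204 in GFP-RFP+), and its part in these shares was not tested.

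Detection followed the base composition of the probe. Of interval probes with at most 30% GC, 15.2% ± 4.53 (SD over 19 arrays, 297 probes) were detected, and of those over 60% GC, 83.7% ± 4.91 (329 probes). Coding probes went from 20.1% to 84.7% over the same classes. Both kinds of probe stood furthest apart from 30% to 45% GC, where most of them lie: from 40% to 45% GC, 27.6% ± 5.23 of 7062 interval probes and 36.9% ± 8.07 of 8968 coding probes were detected. From 50% to 55% GC the shares were 51.3% and 53.5%, and from 55% to 60% GC 70.5% and 66.6%.

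Within a GC class, the strand on which the G bases lay went with detection of interval probes. The motif GGGG without CCCC was held by 10.9% of interval probes, and CCCC without GGGG by 10.8% (9.22% and 9.32% of coding probes). The probe is read as printed, 5' to 3', so that CCCC is the same motif on the other strand. From 40% to 45% GC, interval probes with GGGG were detected at 43% ± 7.1, those with CCCC at 25.6% ± 5.67 and those with neither at 25.9% ± 5.02. From 50% to 55% GC the shares were 57.8%, 51.8% and 49.5%. GGGG interval probes were above CCCC interval probes on 19 of 19 arrays in each of the 3 GC classes looked at. Coding probes with GGGG and CCCC were detected at 50% and 35% from 40% to 45% GC and at 59.9% and 54.6% from 50% to 55% GC. From 45% to 50% GC the coding shares did not differ in that way, at 51.8% ± 9.14 with GGGG and 53% ± 8.13 with CCCC. The probe near Id2 printed above opens with such a run and was detected on all arrays. A match to these letters is a description and names no cause.

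**Figure D2:**
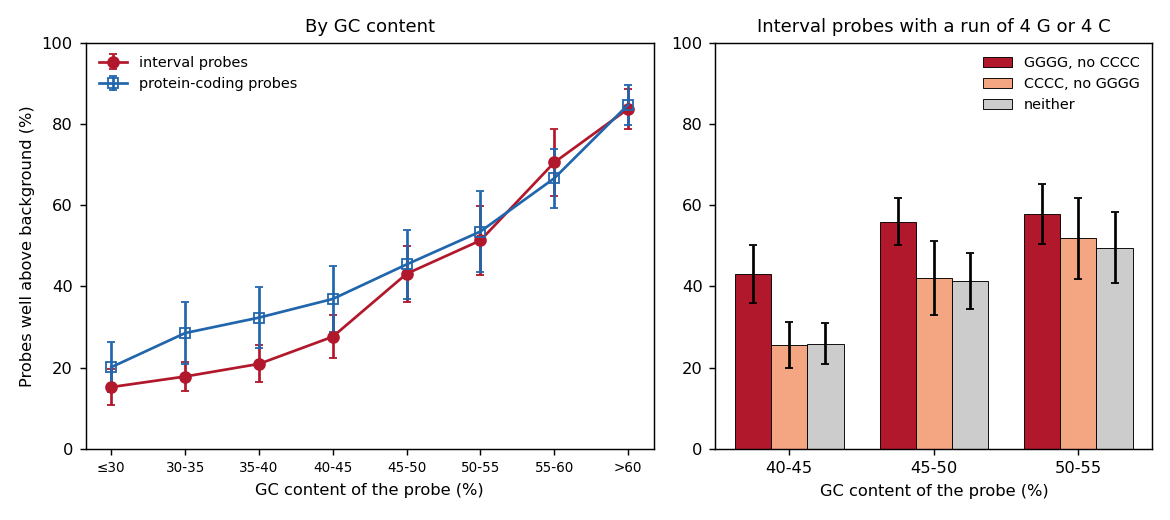
Left, percent of probes well above background by GC content of the probe for interval and protein-coding probes; right, the same for interval probes that hold GGGG, CCCC or neither, in 3 GC classes. Points and bars are means over 19 arrays and error bars are SD over arrays; detection of interval probes climbs from 15.2% to 83.7% with GC, and GGGG probes stand above CCCC probes at equal GC.

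A few interval probes hold a repeat of TG or, on the other strand, CA. The motif searched was 6 or more units of TG or of CA in a row, and it was chosen after the values were seen. It occurred in 17 interval probes, 16 of which were detected on all arrays. At 45% GC or less, 14 such interval probes were detected at 94.7% ± 3.23, and 11944 without the repeat at 24.1% ± 4.72. Of 91 coding probes with the repeat in that GC range, 90 were detected on all arrays. Among the 100 interval probes with the highest mean signal of those on all arrays, 9 held the repeat. The probe near Fgd5 printed above is one of them, and the other 2 probes of its interval were detected on 6 arrays each.

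Detection was uneven within an interval. Of 4429 features, 1270 had at least 1 probe on all 19 arrays, 3319 (74.94%) had one on at least 4 arrays, and 283 had none on any array. By probe, 25.8% were detected on no array, 29.8% on 1 to 3 arrays and 10.9% (1700 probes) on all. Among the 3258 features with 3 or more probes, 1042 had a probe on all arrays, but 25 had every probe there, and 551 had a probe on all arrays beside another on none.

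Where probes of an interval overlapped, they tended to be detected together, whether they lay on the same or on opposite strands. Of same-strand pairs that overlapped by 40 to 60 bases (182 pairs), 84.8% ± 5.05 (SD over 19 arrays) of detected probes had a detected partner, against 42.1% ± 6.95 for same-strand pairs that did not overlap. Opposite-strand pairs that overlapped by 40 to 60 bases (1235 pairs) reached 69.8% ± 5.04, against 38.4% ± 5.82 without overlap. The overlapping opposite-strand pairs were above the separate ones on 19 of 19 arrays, also among probes with at most 45% GC (65.6% against 32.1%). The median absolute difference in log2 signal within a pair went from 1.62 without overlap to 0.686 at 40 to 60 bases for opposite strands, and from 1.45 to 0.253 for the same strand. Pairs on 1 strand were above pairs on opposite strands at that overlap on 19 arrays, and on 18 at the lower GC. The sources used here do not state which strand of the amplified cDNA carried the label.

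**Figure D3:**
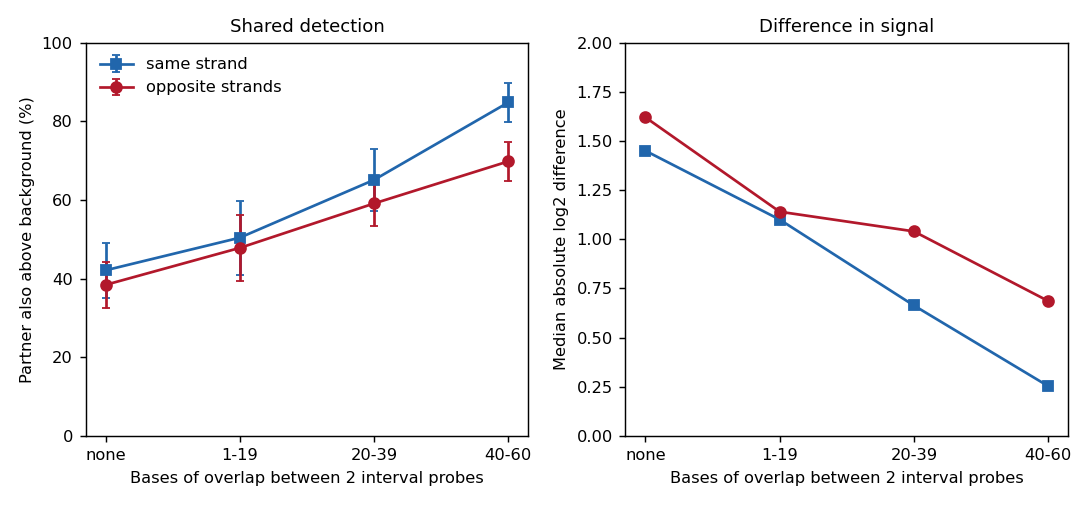
Pairs of interval probes of the same interval, by the number of bases they overlap and by strand: left, percent of detected probes whose partner was also detected (mean and SD over 19 arrays); right, median absolute log2 difference in signal between partners. At 40 to 60 bases of overlap, the partner was detected for 84.8% on the same strand and 69.8% on opposite strands, from 42.1% and 38.4% without overlap.

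Of the 1042 intervals probed on both strands, 565 had a strand detected on all arrays, and in 225 of these both were. In 6 intervals 1 strand had a probe on all arrays while the other strand had none on any. The interval chr4:11102287-11118421, which lies 1054 bases from the nearest probe of Trp53inp1 (a stress-response gene), is one: its reverse-strand levels ran from -7.58 to -3.43 over the 19 arrays, while its forward probe, complementary over 50 bases, was detected on none. The others lay nearest to Guca2b, 2700081O15Rik, Zfp715, Rac2 (a GTPase of blood cells) and Thbs1. The Rac2 neighbour, chr15:78403377-78412545 on the forward strand, has a probe of 70% GC that was detected on all arrays at levels of -8.82 to -5.12. None of these 6 passed the test in any comparison between groups.

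Some interval probes share their letters with probes of named genes. At least 30 bases in a row were shared by 126 interval probes (0.807%). In 37 pairs the gene lay elsewhere in the genome and the probes were reverse complements of each other, and the partner of a detected probe was detected in 93.2% ± 4.44 of cases (SD over 19 arrays). In 17 pairs that lay elsewhere in the same orientation it was 95.9% ± 5.73. Pairs at the same place gave 62.7% ± 17.6 (19 pairs of opposite orientation) and 78.3% ± 9.15 (54 pairs of the same orientation). The probes of these sets were not detected equally often to begin with. In pairs elsewhere 71.9% (reverse complement) and 73.5% (same orientation) were detected, and at the same place 34.6% and 29.6%. The shares with a detected partner are therefore not directly comparable between the sets. Such probes made up 23 of the 1700 on all arrays and 6 of the 100 with the highest mean signal.

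The interval with the highest mean signal, chr4:13369325-13456750 on the forward strand, is of this kind. It lies 361439 bases from the nearest probe of a named gene, that of Runx1t1. Its own probe holds 32 bases of the reverse complement of the Rpl26 probe (Rpl26 is a protein of the large ribosomal subunit). Its levels were 3.2, 3.05, 3.08, 3.31 and 3.14 in GFP-RFP-, 3.13, 3.05, 3.17, 3.58 and 3.26 in GFP+RFP-, 3.98, 3.89, 3.24, 3.51 and 3.9 in GFP-RFP+, and 3.91, 4, 3.69 and 3.4 in GFP+RFP+. The groups overlapped, and no comparison passed (limma, GFP-RFP+ minus GFP-RFP- 0.55 ± 0.29 SE, adjusted p = 0.267). The Rpl26 probe itself stood at 2.47 ± 0.12, 2.46 ± 0.23, 2.77 ± 0.29 and 2.63 ± 0.23 (SD) in the same order of groups.

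The 10 interval features with the highest mean among those on all arrays had mean levels of 2.9 to 3.45. The one at chr13:98528250-98551125 shares 35 bases with the reverse complement of the Rps18 probe (a small ribosomal subunit protein), and a further probe of chr15:77164450-77201325 shares 33 with that of Tmsb10 (an actin-binding peptide). Those at chr11:60728207-60745369, over Map2k3os, and at chr6:92040526-92041319 rest on a probe with the TG or CA repeat. On chr2:151992806-152025456, 7 of 8 probes were on all arrays, and on chr6:83541250-83560425 all 5. Of the 10, 3 lie on chromosome 18.

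The interval probes lay a median of 19959 bases from the nearest probe of a named gene, and 472 features had such a probe inside, 285 on the same strand. Detection was 34.6% ± 6.71 (SD over 19 arrays) for features with a named-gene probe inside, 31.1% ± 5.32 within 10000 bases, 30.9% ± 5.02 up to 100000 bases and 29.8% ± 5.23 beyond. The difference between these classes was not tested. Of interval probes, 161 had letters inside a promoter window of the RefSeq table (GRCm38.p6, matched by sequence), and these were detected at 44.6% ± 5.14, with a median GC of 55%.

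In the comparisons between groups, 1 limma model over all 4 groups was fitted to 20617 features detected on at least 4 arrays, 3319 of them intervals, with Benjamini-Hochberg adjustment over all 20617 and a threshold of 0.05. Each interval was read by its probe with the highest mean signal. Between GFP-RFP+ and GFP-RFP-, which sets regulatory against conventional cells without the IL-2 reporter, 33 intervals passed, 14 higher and 19 lower in GFP-RFP+. Of all features tested, 1.7% passed, 0.47% higher and 1.23% lower. With the scaling used here, the 33 of 3319 intervals are a smaller share (0.994%). Under other scalings, given below, it was the larger share. The median difference was 0.17 over the intervals and -0.29 over all features.

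The count and the split differed with the scaling, for all features as for intervals. With the percentile taken over all probes, which put the median of all features at 1.02, 864 intervals passed and 838 of them were higher. By quantile normalization 889 of 927 were higher, and with the values of the deposited series table it was 913 of 955 intervals. Of all 20617 features, 19.6%, 17.1% and 17.7% passed in these settings, and the intervals called were then the larger share of those tested. Leaving out single arrays gave 5 calls (without GFP-RFP- 1) to 199 (without GFP-RFP+ 4), where 0.429% and 5.69% of all features passed. Without the 3 arrays with few detected probes 4 intervals passed, beside 0.133% of all features. The percent of probes detected per array was lower in GFP-RFP+, and with it as a covariate no interval passed (280 had an unadjusted p under 0.05). Few markers of other cell types differed beyond the threshold between these groups. The B cell receptor gene Cd79b, with a mean of -1.27 in GFP-RFP- and -7.61 in GFP-RFP+, was the 1 of 6 tested B cell markers that passed (limma adjusted p = 0.0429). Of these 6, 5 had the lower mean in GFP-RFP+ and 1 the higher one. None of the CD8 T and NK cell or erythroid and platelet markers passed. Summed levels (on the linear scale, over 9 of the 10 myeloid and dendritic markers) ran from 10.1 to 15.4 in GFP-RFP- and from 10.6 to 24.1 in GFP-RFP+, and Itgax, the tenth, was detected on no array. Itgam makes up most of that sum, with a mean log2 level of 2.69 in GFP-RFP- and 3.86 in GFP-RFP+. Of the 9, 4 had the higher mean in GFP-RFP+ and 5 the lower one, among them Tyrobp (-2.04 and -10.67, on 4 and 0 of 5 arrays) and Fcer1g (-1.03 and -6.12), and none passed. The part of these markers in the calls was not tested. In bulk samples, fewer cells of a type and less RNA per cell cannot be told apart.

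The 19 intervals that were lower in GFP-RFP+ had fitted differences of 2.87 to 7.78 on the log2 scale (median 5.74), and adjusted p of 0.0105 to 0.0498. Many of these differences are between a detected and an undetected state. In 3 of the 19, no GFP-RFP+ array detected the probe. Other probes of the same features were in the same direction in 29 of 33 cases, 20 of them at an unadjusted p under 0.05, and probes of the other strand in 15 of 17. Over all features, 42.9% were higher in GFP-RFP+ and 22.6% had an unadjusted limma p under 0.05 in either direction. Of the 3319 intervals tested, 1846 were higher and 700 had such a p. The other probes of the called features were read on the same arrays, so they are not independent of the calls.

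The interval over Tug1 is the lower one with the largest difference. Tug1 is a conserved long intergenic noncoding RNA found in many tissues, and the interval, chr11:3539787-3548811 on the reverse strand, contains a named Tug1 probe. Its levels were -2.36, -4.3, -0.11, -0.92 and -3.19 on GFP-RFP- arrays and -9.8, -7.55, -10.48, -11.04 and -10.9 on GFP-RFP+ arrays. These groups did not overlap, and 1 of the 5 GFP-RFP+ arrays detected the probe. GFP+RFP- arrays ranged from -10.82 to -1.4 and GFP+RFP+ arrays from -10.77 to -0.98, both spanning the gap. The difference between GFP-RFP+ and GFP-RFP- was -7.78 ± 1.77 (SE; limma adjusted p = 0.0379). Both other probes of the interval had lower means in GFP-RFP+ too, and 1 of them shares 38 bases with the named Tug1 probe, whose difference was -5.96 with an adjusted p of 0.127.

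The interval nearest to Rab10 (a GTPase of membrane traffic, its probe 46931 bases away), chr12:3199327-3200827 on the forward strand, had the smallest adjusted p. Its levels were -2.91, -5.08, -1.49, -3.07 and -4.08 in GFP-RFP-, -5.67, -11.35, -8.86, -10.99 and -6.94 in GFP+RFP-, -9.81, -10.07, -7.73, -9.28 and -10.93 in GFP-RFP+, and -9.05, -10.37, -10.54 and -7.46 in GFP+RFP+. Every GFP-RFP- array was above every array of the other groups. The difference between GFP-RFP+ and GFP-RFP- was -6.24 ± 1.05 (SE; limma adjusted p = 0.0105), and it passed without each single array in turn. All 3 probes of the interval were detected on all 5 GFP-RFP- arrays and on at most 1 GFP-RFP+ array.

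The interval nearest to Frmd3, chr4:73870498-73881323 on the reverse strand, was read by the probe printed above, whose 60 bases are all the reverse complement of the probe of Zfp384, a zinc finger transcription factor encoded elsewhere. Its levels were -2.01, -1.1, 0.5, -5.01 and -2.23 in GFP-RFP- and -7.53, -8.8, -10.07, -10.53 and -9.56 in GFP-RFP+. The groups did not overlap, and the difference was -7.33 ± 1.3 (SE; limma adjusted p = 0.0132). In GFP-RFP- all 5 arrays detected the probe, whereas in GFP-RFP+ it was not above background on 4 of 5, whose levels are only bounds. The Zfp384 probe ran alike, with -2.37 ± 2.01, -7.68 ± 3.64, -10.52 ± 0.6 and -10.3 ± 0.77 (SD) in GFP-RFP-, GFP+RFP-, GFP-RFP+ and GFP+RFP+, beside -1.97 ± 2.01, -6.42 ± 3.22, -9.3 ± 1.18 and -9.1 ± 1.29 for the interval. In all, 4 called intervals had a probe that shares 30 or more bases with a named gene: besides these it was Rbmxl1 and, over 32 bases on another probe, Zfp937.

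The remaining named decreases were at chr14:70136275-70148375 (forward, nearest Chmp7), chr13:62117000-62164075 (reverse, nearest Zfp808) and chr8:41941084-41947630 (reverse, nearest Adam39), with differences of -7.51, -6.74 and -6.34 and limma adjusted p of 0.0436, 0.0498 and 0.0436. Their probes were detected on all 5 GFP-RFP- arrays and on 2, 2 and 1 of the 5 GFP-RFP+ arrays. At chr14:70136275-70148375 the 5 GFP-RFP- arrays ran from -1.9 to 0.35 and the 5 GFP-RFP+ arrays from -10.98 to -5.98, with no overlap. At chr13:62117000-62164075, GFP-RFP+ 3 stood at -2.61, inside the GFP-RFP- range of -2.83 to -0.11, and the other 4 arrays at -8.07 or below. At chr8:41941084-41947630, GFP-RFP+ 3 again was the highest of its group, at -3.9.

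The 14 intervals that were higher in GFP-RFP+ had smaller differences, 1.84 to 3.76 on the log2 scale (median 2.5), with adjusted p of 0.0164 to 0.0487. In 6 of the 14, all arrays of both groups detected the probe, whereas in 5 it was above background on no GFP-RFP- array. Other probes of the same features were in the same direction in 8 of 15 cases, 1 of them at an unadjusted p under 0.05, and probes of the other strand in 7 of 13. Over all features, 42.9% were higher in GFP-RFP+, and of the 3319 intervals tested 1846 were. Other probes of the called intervals thus shared the direction about as often as any interval was higher.

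The interval nearest to Dnajc21 (a cochaperone of ribosome assembly, its probe 7526 bases away), chr15:10363330-10371830, passed on both strands. On the reverse strand its levels were -4.7, -5.09, -5.65, -4.47 and -6.9 in GFP-RFP- and -2.16, -1.66, -2.81, -2.46 and -2.23 in GFP-RFP+, with no overlap and a difference of 3.1 ± 0.65 (SE; limma adjusted p = 0.0295). On the forward strand they were -5.02, -4.92, -7.77, -5.79 and -7.81 against -2.84, -3.71, -4.07, -2.74 and -3.4, also with no overlap, and the difference was 2.91 ± 0.71 (limma adjusted p = 0.0487). These probes are the chr15 pair printed above, complementary over 58 bases, so the calls are not independent of each other. Neither of the 2 other reverse-strand probes was higher in GFP-RFP+: their means were -6.69 ± 2.81 and -5.2 ± 2.06 (SD) in GFP-RFP- and -8.04 ± 4.15 and -5.29 ± 3.84 in GFP-RFP+.

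At chr2:175898018-175930211 (reverse, nearest Gm14391) no GFP-RFP- array detected the probe, with levels of -11.97 to -11.17. GFP-RFP+ arrays stood at -8.55, -6.13, -8.81, -10.06 and -5.42, of which 2 were detected (limma adjusted p = 0.0387). Folds given as at least are taken against the lowest signal among detected probes of each array. Here that gave 3.18-fold, which is not a firm lower bound, because GFP-RFP+ arrays not above background entered the mean as measured. At chr1:59449275-59474025 (reverse, nearest Cdk15) and chr5:15176325-15223375 (forward, containing a Speer4cos probe) the probe was detected in GFP-RFP+ on all 5 arrays and in GFP-RFP- on 2, with differences of 2.89 and 2.73 and limma adjusted p of 0.0456 and 0.0397. The 11 intervals named in this comparison kept their direction in each of the 3 slides taken alone. They were chosen for large differences on these same arrays, so this is no separate support. On slide 2, GFP-RFP+ 2 was the only array of its group, and on slide 3 GFP-RFP- 5 was.

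**Figure D4:**
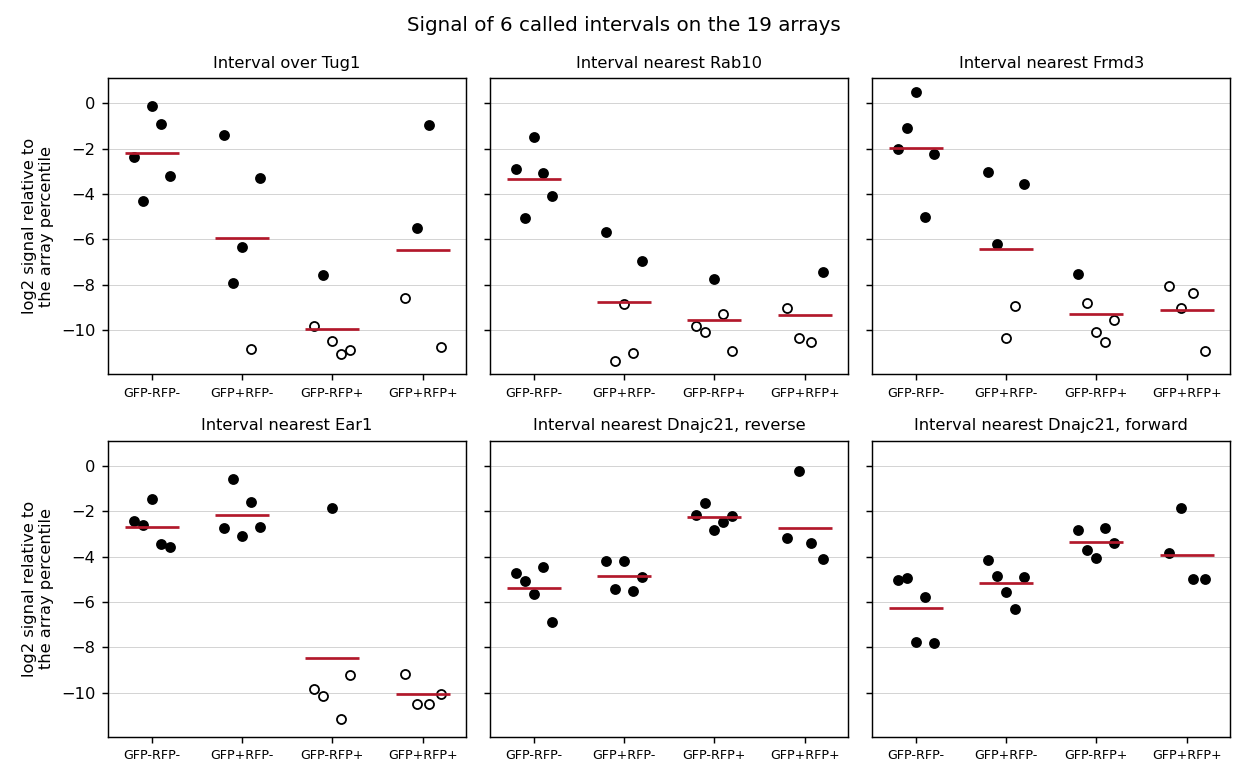
Log2 signal relative to the array percentile on each of the 19 arrays in the 4 reporter groups, for 6 features called between groups; filled points were well above background, open points were not, and red lines are group means. The interval nearest Rab10 is detected on all 5 GFP-RFP- arrays at -5.08 or above and the one nearest Ear1 on all 10 RFP- arrays, while both strands of the interval nearest Dnajc21 are higher on GFP-RFP+ than on GFP-RFP- arrays.

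Between GFP+RFP+ and GFP+RFP-, which sets the same lineages side by side within IL-2 reporter-positive cells, 3 intervals passed, 1 higher and 2 lower, where 0.204% of all features passed, 0.0873% higher and 0.116% lower. The median difference was 0.69 over the intervals and 0.22 over all features. Leaving out single arrays gave 0 to 30 calls, the most without GFP+RFP- 4, where 1.46% of all features passed. The count and the split turned on the background correction and the filter. With normexp 1117 intervals passed, 1099 of them higher in GFP+RFP+, and 23.7% of all features passed. Over features detected on all arrays 164 intervals passed, 162 of them higher, beside 12.9% of all such features. Summed levels of the 9 myeloid and dendritic markers did not overlap between these groups, at 8.8 to 12.6 in GFP+RFP- and 15.3 to 31.8 in GFP+RFP+. Itgam again made up most of the sum (mean log2 levels of 2.98 and 4.1), 7 of the 9 markers had the higher mean in GFP+RFP+, and none passed. The part of these markers in the calls was not tested.

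The interval nearest to Ear1, chr14:44292637-44293014 on the forward strand, passed here and in GFP-RFP+ against GFP-RFP-. Its levels were -2.45, -2.62, -1.47, -3.43 and -3.58 in GFP-RFP-, -2.76, -0.6, -3.08, -1.59 and -2.7 in GFP+RFP-, -9.85, -10.16, -1.86, -11.16 and -9.23 in GFP-RFP+, and -9.17, -10.51, -10.49 and -10.07 in GFP+RFP+. It was detected on all 10 RFP- arrays, on 1 of 5 GFP-RFP+ arrays (replicate 3, within the RFP- range) and on 0 of 4 GFP+RFP+ arrays. In GFP+RFP+ it was at least 95.2-fold lower than in GFP+RFP- (limma adjusted p = 0.0273), and in GFP-RFP+ the difference from GFP-RFP- was -5.74 ± 1.26 (SE; limma adjusted p = 0.0348). The probe shares 55 bases with the probe of Rbmxl1, a gene for an RNA-binding protein encoded elsewhere, in the same orientation. The Rbmxl1 probe had -2.56 ± 0.97, -1.84 ± 0.97, -8.17 ± 4.02 and -10.39 ± 0.78 (SD) in GFP-RFP-, GFP+RFP-, GFP-RFP+ and GFP+RFP+, beside -2.71 ± 0.85, -2.14 ± 1.03, -8.45 ± 3.75 and -10.06 ± 0.62 for the interval.

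The interval chr11:95627874-95640824 on the forward strand lies 2006 bases from the nearest probe of Zfp652, a zinc finger gene. Its levels were -1.89, -2.65, -4.11, -0.56 and -3.38 in GFP+RFP- and -8.98, -7.46, -8.72 and -11.05 in GFP+RFP+, with no overlap, and the difference was -6.53 ± 1.28 (SE; limma adjusted p = 0.049). The probe was detected on all 5 GFP+RFP- arrays and on 1 of 4 GFP+RFP+ arrays. All 7 of its other tested probes, read on the same arrays, were in the same direction, where 55.9% of all features were higher in GFP+RFP+. In GFP-RFP+ against GFP-RFP- the difference was -3.89 ± 1.2 (limma adjusted p = 0.0903). At chr5:14988715-14989311 (forward, nearest Speer8-ps1) levels were -8.22, -9.03, -8.73, -8.99 and -9.43 in GFP+RFP- and -5.72, -5.93, -5.6 and -6.67 in GFP+RFP+, with no overlap. The difference was 2.9 ± 0.49 (SE; limma adjusted p = 0.0273), and the interval had no other probe that could be tested.

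The IL-2 reporter went with no interval call. Between GFP+RFP- and GFP-RFP- no interval passed in limma, 117 had an unadjusted p under 0.05, and 0.0097% of all features passed. The smallest p belonged to the interval nearest Rab10, with a difference of -5.44 ± 1.05 and an adjusted p of 0.17. At chr4:21683562-21694344, which contains a Tstd3 probe, GFP+RFP- arrays stood at -1.16, -4.18, -10.97, -9.33 and -3.68, while no GFP-RFP- array detected it (adjusted p = 0.536). At chr1:81657350-81765250 (nearest Irs1) the GFP-RFP- arrays lay between -5.45 and -4.65 and the GFP+RFP- arrays between -3.94 and 0.19 (difference 2.52, limma adjusted p = 0.552).

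Comparing GFP+RFP+ with GFP-RFP+, no interval passed in limma, 176 had an unadjusted p under 0.05, and 0.00485% of all features passed. The smallest p belonged to chr3:146629425-146649125 (difference 2.26, adjusted p = 0.332), chr13:64018565-64082570 and chr3:58496493-58601253 (differences -2.07 and 2.31, both with limma adjusted p = 0.396). At chr13:64018565-64082570, nearest to the DNA repair gene Ercc6l2, GFP+RFP+ arrays stood at -1.99, -0.39, -0.69 and -0.6, below all 5 GFP-RFP+ arrays (0.3 to 1.99). The interaction of both reporters had no interval call either, with 138 at an unadjusted p under 0.05 and 0.0097% of all features called; its smallest p belonged to the intervals nearest Rab10, at chr11:50994911-51050704 and at chr1:122980883-123017009 (over Celrr), each with a limma adjusted p of 0.816.

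Genes of T cell biology have intervals beside them. From a list of T cell genes, 16 had the nearest named-gene probe, within 100 kb, of 38 interval features. Of these, 32 could be tested and 13 had the probe used on all arrays. None passed in any of the 5 comparisons. In GFP-RFP+ against GFP-RFP-, 6 of 32 had an unadjusted limma p under 0.05, where 22.6% of all features did. Of the 32, 13 were positive and the median difference was -0.24, beside -0.29 over all features. Over all 3319 intervals tested the median was 0.17, with 1846 positive. In GFP+RFP+ against GFP+RFP-, 6 had an unadjusted limma p under 0.05, beside 17.4% of all features. There 24 of the 32 were positive and the median was 0.68, beside 0.22 over all features. The intervals as a whole stood close to that, with a median of 0.69 and 2387 of 3319 positive.

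Of those on all arrays, the interval near Bcl6 (a repressor that directs follicular helper T cells), chr16:23992037-24001037 on the forward strand, was read by the chr16 probe printed above. Its levels were -6.69, -7.5, -7.68, -7.45 and -8.09 in GFP-RFP-, -6.79, -7.6, -7.05, -6.64 and -7.57 in GFP+RFP-, -4.63, -4.03, -6.37, -7.66 and -6.13 in GFP-RFP+, and -4.51, -4.71, -4.67 and -5.91 in GFP+RFP+. GFP+RFP+ and GFP+RFP- did not overlap, and GFP-RFP+ overlapped GFP-RFP- by 1 array. The differences were 2.18 ± 0.61 and 1.72 ± 0.58 (SE), with limma adjusted p of 0.119 and 0.11, so neither passed. Its overlapping reverse-strand probe was detected on 2 arrays.

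The interval near Id2 (an inhibitor of helix-loop-helix factors), chr12:25852471-25852681, had levels of -4.09 to -2.97 in GFP-RFP-, -3.2 to -2.05 in GFP+RFP-, -3.16 to -0.68 in GFP-RFP+ and -2.69 to -0.62 in GFP+RFP+. These ranges overlap, and the differences of 1.4 and 1.38 between RFP+ and RFP- cells had limma adjusted p of 0.133 and 0.208. The interval chr11:117792051-117811334, near the cytokine signalling inhibitor Socs3, had means of -3.04 ± 0.56, -3.4 ± 0.92, -4.12 ± 0.67 and -3.68 ± 1 (SD) in GFP-RFP-, GFP+RFP-, GFP-RFP+ and GFP+RFP+, with a smallest limma adjusted p of 0.24. The intervals near Tigit, Cd69, Cd247, S1pr1, Socs2, Myc and Eomes and another one near Socs3 were also on all arrays, at mean levels of -6.91 to -4.48. The one near Cd69 (an early activation receptor that retains T cells in tissue), chr6:129151512-129208737, varied widely within groups: GFP+RFP- arrays stood at -2.2, -1.42, -8, -0.4 and -6.51. Cd247, which encodes the zeta chain of the T cell receptor complex, had probes of both strands of chr1:167797581-167803031 on all arrays, with GFP-RFP- 5 at -1.1 on the reverse and -3.37 on the forward strand, above the other 4 arrays of its group on both.

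Long noncoding RNAs with a name of their own gave a frame for the intervals. Of 58 on a list, 40 had a probe, 26 could be tested, and 1 passed in GFP-RFP+ against GFP-RFP-, as a lower level, none in the other comparisons. In that comparison 1.7% of all features passed, 1.23% lower. Detected on all arrays were, among others, Neat1 (the scaffold RNA of paraspeckles), Gas5 (a host of small nucleolar RNAs), 6720401G13Rik, Pvt1 (next to Myc), Mirg and Airn (both imprinted). Neat1 had 1.86 ± 0.22, 1.86 ± 0.27, 1.39 ± 1.86 and 2.46 ± 0.27 (SD) in GFP-RFP-, GFP+RFP-, GFP-RFP+ and GFP+RFP+. Gas5 had 0.44 ± 0.73, -1.97 ± 2.25, -2.7 ± 1.74 and -3.53 ± 0.81 in the same order, and its difference of -3.14 between GFP-RFP+ and GFP-RFP- had a limma adjusted p of 0.0893. The one that passed, Snhg1, also a small nucleolar RNA host, is named after its values were seen: it had -1.03 ± 0.68, -3.73 ± 4.21, -10.71 ± 0.64 and -5.05 ± 4.9. All 5 GFP-RFP- arrays detected it and 0 of 5 GFP-RFP+ arrays did, and it was at least 210.2-fold lower in GFP-RFP+ (limma adjusted p = 0.0214).

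Of the T cell identity markers, 14 of 14 were tested and 8 were on all arrays. Markers of other cells were detected too. Of 8 B cell markers, 6 were tested and 3 (Cd22, Pax5 and Cr2) were on all arrays, with Cd79b on 14, while Ms4a1 and Blk were detected on 1 array each. Of 8 CD8 T and NK cell markers, 5 were tested and none was on all arrays: Nkg7 was detected on 18, Klrd1 and Klrb1c on 12 each, Cd8a on 3 and Cd8b1 on 2. Of 7 erythroid and platelet markers, 2 were tested, Hba-a1 and Itga2b, each on 18 arrays. Foxp3 was on all arrays, at mean levels of -7.89, -7.63, -5.35 and -6.13 in GFP-RFP-, GFP+RFP-, GFP-RFP+ and GFP+RFP+. Its differences between RFP+ and RFP- cells were 2.55 without and 1.51 with the IL-2 reporter. Neither passed (limma adjusted p of 0.187 and 0.521). Foxp3 is on a list of 12 regulatory T cell markers, of which 10 were tested. Without the IL-2 reporter, 7 of these had the higher mean in RFP+ cells and 3 the lower one. Gpr83 alone passed there, with a difference of 6.83 (limma adjusted p = 0.0331). No GFP-RFP- array detected the Gpr83 probe, whereas 4 GFP-RFP+ arrays did. With the IL-2 reporter, 5 had the higher mean and 5 the lower one, none passed, and Gpr83 differed by -1.28. Over all probes, 22% to 44.9% were detected per array. The number of arrays limits the precision throughout.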

How the data were processed

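RNA from 19 samples was hybridised to 1-colour Agilent arrays of 62976 spots, and the scanner files were read as deposited. The processed intensity in them was made by Feature Extraction 10.7.3.1 with background subtraction and detrending, per the file headers. The deposited series table holds log2 values, and the sources used here do not state their normalization. Groups came from the sample titles. Control spots (3671) and spots marked as outliers were left out, and spots of a probe were averaged. Levels are log2 intensity minus the 75th percentile of the array over probes well above background on all arrays (6612). Features had to be well above background on at least 4 arrays and were read by their brightest probe. limma 3.58.1 in R 4.3.3 (lmFit, eBayes) was fitted over 4 groups with no covariate, and p-values were adjusted by Benjamini-Hochberg at 0.05. Shares were compared by exact permutation tests.

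The test was checked on simulated data for 20617 features. Of features changed by 2, 4 and 8 on the log2 scale, 26%, 73% and 98% were recovered in GFP-RFP+ against GFP-RFP-, and 20%, 62% and 92% in GFP+RFP+ against GFP+RFP-. The shares were 18%, 66% and 96% in GFP+RFP- against GFP-RFP- and 16%, 60% and 98% in GFP+RFP+ against GFP-RFP+. For the interaction they were 4%, 32% and 72%. False calls numbered 5 to 7 per comparison. A comparison without interval calls therefore does not show that no interval differed.

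Named intervals were the called ones with the largest differences (6 in each direction), the 3 with the smallest p where none was called, the 10 with the highest mean signal, those near T cell genes with a probe on all arrays, and those with 1 strand on all arrays and the other on none. Of the named intervals, 1 is not reported here. The members and lists were chosen with earlier results of these data known. After group means were subtracted, same-numbered arrays of different groups showed little correlation (27 pairs, r from -0.074 to 0.093). Replicate numbers were therefore not taken as pairs. Pairing is not excluded by this, and with the numbers as a block the first comparison gave 11 calls and the second 0. No 2 arrays held the same values (highest correlation 0.7774). Probe positions are those of the files, on mm9, and promoter letters come from RefSeq. Alternatives covered scaling, background, filter, probe choice, slide, scan, replicate number and left-out arrays.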

Additional observations from a re-analysis of the deposited data

Results flagged for a closer look

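In 21 of 212 groups of values, 1 array stood apart from the others of its group by more than Dixon's 95% critical value, which chance alone gives in about 1 group in 20. No explanation was tested for them.

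GFP-RFP- 5 was the array standing apart on several intervals. Both strands of the Cd247 interval chr1:167797581-167803031 were highest there, at -1.1 (reverse) and -3.37 (forward), as was chr11:117835849-117842574 near Socs3, at -2.45, and the interval near Fgd5, chr6:92040526-92041319, at 3.05. Other low arrays of GFP-RFP- were at -3.35 for chr8:41941084-41947630 near Adam39, at -9.93 for chr5:14988715-14989311 near Speer8-ps1, and at -5.23 for chr11:95627874-95640824 near Zfp652.

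In GFP-RFP+, replicate 3 was the high array for chr13:62117000-62164075 near Zfp808 (-2.61) and for chr14:44292637-44293014, whose probe shares bases with Rbmxl1 (-1.86), so that both calls hold despite an array within the GFP-RFP- range. The highest median signal of detected interval probes in GFP-RFP+ was 131.

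In GFP+RFP-, 1 array was low for chr14:70136275-70148375 near Chmp7 (-8.65). Single arrays were high for the Id2 neighbour chr12:25852471-25852681 (-2.05), for the reverse strand of the Cd247 interval (-4.67), for chr11:117835849-117842574 near Socs3 (-0.48), for chr9:118291593-118324230 near Eomes (-4.37) and for chr4:11102287-11118421 near Trp53inp1 (-3.43).

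In GFP+RFP+, 1 of the 4 arrays was low for chr2:175898018-175930211 near Gm14391 (-10.99), chr1:122980883-123017009 over Celrr (-9.15) and chr16:23992037-24001037 near Bcl6 (-5.91). It was high for chr11:50994911-51050704 (-6.28). The lowest share of detected signal from interval probes was 7.05%.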

How the results depend on the processing

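Counts of called intervals moved with most settings. In GFP-RFP+ against GFP-RFP- (33 calls), the all-probe percentile gave 864 (838 higher), normexp 952 (894 higher), quantile normalization 927 (889 higher), the values of the series table gave 955 (913 higher), no detection filter 21, detection on all arrays about 1.1e+02 (86 higher and 21 lower), every probe as a feature 71, a slide block 199 and a scan block 60. Adding each array's percent of detected probes as a covariate gave 0 (280 at an unadjusted p under 0.05), slide 1 alone 2, slides 2 and 3 alone 0 (713 and 289), and dropping the 3 arrays with few detected probes 4. In GFP+RFP+ against GFP+RFP- (3 calls), the counts in that order were 1 (all-probe percentile), 1117 (normexp; 1099 higher), 9 (no filter), 164 (all arrays; 162 higher), 8 (every probe), 16 (slide block; 13 higher), 1 (scan block), 0 (covariate; 597 unadjusted) and 0 in each slide alone (467, 225 and 230 unadjusted). From the all-probe percentile to the covariate, those settings called 0.0485%, 23.7%, 0.308%, 12.9%, 0.167%, 0.669%, 0.0291% and 0.0388% of all features. GFP+RFP- against GFP-RFP- gave 1 with normexp, 1 with the mean of the probes and 2 with every probe. GFP+RFP+ against GFP-RFP+ gave 1, 1 and 2, and 1 without the 3 arrays. The replicate block gave 11 and 0 calls in the first and the second comparison, beside 0.96% and 0.0388% of all features. Whether same numbers are pairs was not settled. The cause of these shifts was not tested.

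Leaving out 1 array gave 5 to 199 calls in the first comparison: 199 without GFP-RFP+ 4, 135 without GFP-RFP+ 3, 67 without GFP+RFP+ 5, 58 without GFP+RFP- 4, 5 without GFP-RFP- 1, 6 without GFP-RFP- 2 or 3, 19 and 11 without GFP-RFP- 4 or 5, 8 without GFP-RFP+ 1, 6 without GFP-RFP+ 2 or 5, and 18 without GFP+RFP- 1. It gave 0 to 30 in the second: 30 without GFP+RFP- 4, 21 and 12 without GFP-RFP+ 2 or 4, 8 without GFP+RFP+ 5, 1 without GFP+RFP- 3 or GFP+RFP+ 1 or 3, and 0 without GFP+RFP- 1, 2 or 5 or GFP+RFP+ 4. Over these fits, 0.429% to 5.85% of all features were called in the first comparison and 0.00994% to 1.46% in the second. The other comparisons gave 0 to 1 interval calls, and the interaction 0. The interval share ran from 30.7% to 31.9% and its difference from coding probes from -5.65 to -4.75. The weaker flag gave 56.8% and -0.813, and 1 probe per interval 57%. Of 23 single-interval results, those without 1 array kept their side of the threshold in 309 cases, lost a call in 124 and gained one in 2, with none reversed. The 309 include results that were not called to begin with and had no call to lose. With the percent of detected probes as a covariate, 14 of the 23 lost their call and 9 stayed on their side. Dim signal limits the rest: many differences set a detected level against one not above background.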
